A study of Rattus norvegicus with 11 samples.

Results

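The genes described here encode the machinery that transcribes protein-coding genes with RNA polymerase II. They were chosen by symbol, with no measured value: protein-coding genes listed in all 11 libraries whose names mark them as subunits of the polymerase, general transcription factors, TBP-associated factors, Mediator, SPT proteins, elongation factors, the PAF complex, NELF, P-TEFb or Integrator. The rule found 53 genes among 10250 protein-coding genes and 23093 features of all kinds. RNA had been sequenced from brain tissue, given in the labels as cortex of the cerebellum, of Sprague-Dawley rats aged 10 weeks. There were 6 libraries of rats homozygous for R571X, a truncating mutation in CSB, which is the product of Ercc6. There were 2 libraries labelled heterozygous, whose second allele is given by no more than a minus sign, and 3 wild-type libraries. The homozygous and heterozygous rats share the R571X allele, and no treatment was given in the labels. The labels do not state whether the libraries of a group came from different animals. The p-values therefore reflect only how far these samples vary, part of which may be technical.

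RNA polymerase II is recruited to promoters by the general transcription factors. TFIID, built from TBP and its associated factors, contacts the core promoter, TFIIA and TFIIB hold the complex in place, TFIIF and TFIIE bring in the polymerase and TFIIH, and Mediator carries signals from activators. Soon after starting, the polymerase is held by NELF and DSIF (the SPT4 and SPT5 proteins), is released when P-TEFb phosphorylates them, and is then accompanied by ELL, TFIIS and the PAF complex, while Integrator ends many short transcripts. CSB binds polymerase that has stalled on damaged DNA and starts transcription-coupled repair.

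Every value called normalized reads is the number of reads of a gene divided by the size factor of its library. The deposited size factors equal those recomputed from the recovered reads when the libraries are taken as 2 sets. Set 1 held homozygous 1 to 3 with both heterozygous libraries, and set 2 held homozygous 4 to 6 with the wild-type libraries. Homozygous was therefore compared with wild type within set 2 (3 against 3 libraries) and with heterozygous within set 1 (3 against 2). Scaling all 11 libraries together would have moved them by between -1.27% and 0.99% relative to their mean shift. The libraries held 5406669 to 8723823 reads, and the 53 genes took between 0.210% of them (heterozygous 2) and 0.273% (homozygous 6). Of the markers of cerebellar cells, Calb1 for Purkinje cells and Neurod1 for granule cells were listed in all libraries, as were the forebrain genes Neurod6 and Emx1. In bulk tissue, fewer cells of a type and less RNA per cell cannot be told apart.

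Ercc6 itself was read in every library. It had 123, 119 and 85.8 normalized reads in homozygous 4 to 6, against 295, 407 and 356 in the wild-type libraries. It had 157, 158 and 153 in homozygous 1 to 3, against 228 and 178 in the heterozygous libraries. The homozygous libraries lay under the others in both sets. The log2 difference between homozygous and wild type was -1.69 ± 0.22 (SE), with an adjusted p of 0.0171 (limma, Benjamini-Hochberg over 20956 features). That call was lost when 1 library was left out, with adjusted p of 0.0685 without homozygous 4, 0.0644 without homozygous 6, 0.0766 without wild type 2 and 0.148 without wild type 3. It was also lost in a limma fit of set 2 alone (adjusted p = 0.143). The same held with the Y-linked gene Eif2s3y as a covariate, scored as at least 100 reads or fewer (limma adjusted p = 0.187). A limma fit with the replicate number as a block and no set term gave a log2 difference of -1.16 (adjusted p = 0.668). Replicates 4 to 6 were homozygous only, so that fit set homozygous 1 to 3 against wild type across the 2 sets.

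Read depth divided the 53 genes into 2 classes. A mean of at least 10 normalized reads was reached by 40 of them, 13 fell below it, and 48 passed the minimum mean of 1 needed for testing. The 5 that did not were Med12l, a kinase-module paralog of Med12, Med16 of the Mediator tail, Supt6h, the histone chaperone SPT6, Polr2e, a subunit shared by all 3 nuclear polymerases, and Ell3, an elongation factor. Their highest library held 4 reads or fewer. Of the 13 genes with few reads, 9 lie on the same strand as another listed feature, as do 10 of the 40 with more. The Integrator gene Ints13 had 30 reads in all 11 libraries together, against 439 on the unnamed feature over it. Med14, the Mediator scaffold, had 11 against 564, Med12l had 8 against 908, Supt5h, the partner of SPT4 in DSIF, had 75 against 342, and Taf1d had 22 against 215, whereas the PAF gene Paf1 had 53 against 15. Reads of the gene and of such a feature cannot be told apart, so a low value here need not be a low level of the gene. Another 5 genes of the same families were listed in 1 set only, with between 2 and 4 reads each: Taf13, Taf8 and Med29 in set 1, and Gtf2a2 and Ints12 in set 2. Of 13 symbols of polymerase II subunits, 5 were listed in all libraries, and the rest were not analysed here.

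Levels are compared between genes per kilobase of the deposited length, as the mean over 11 libraries. P-TEFb's kinase Cdk9 was highest at 1124 normalized reads per kb, followed by the Mediator middle gene Med10 at 846, the DSIF subunit Supt4h1 at 754 and the polymerase subunit Polr2j at 740. Polr2a, the catalytic subunit, reached 209.8 and Polr2d, part of the stalk, 255. The Integrator subunit Ints3 reached 332, the PAF subunit Ctr9 249.7, NELF's Nelfa 252 and the elongation factor Ell 127. The TFIID subunits Taf5 and Taf12 stood lower, at 30.3 and 33.5, and Med23 of the Mediator tail at 47.7.

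The promoters of 5 genes on which the results turn are shown first, because Polr2d, Supt4h1 and Polr2j followed one another across libraries, while Polr2a and Med23 did not. Each is the RefSeq sequence of build GRCr8, read on the strand of the gene from 250 bases before its start to 50 after it. Capitals mark the motifs searched on both strands: the GC box GGGCGG, the CCAAT box CCAAT, the TATA box TATAAA, the E-box CACGTG, and the motifs CCGGAAG of ETS factors, GCATGCG of NRF1 and AAGATGG of YY1. The windows lie at chr18:23692328-23692627 on the plus strand (Polr2d), chr10:73036324-73036623 on the plus strand (Supt4h1), chr12:26185152-26185451 on the minus strand (Polr2j), chr10:54977130-54977429 on the minus strand (Polr2a) and chr1:22356705-22357004 on the minus strand (Med23).
Polr2d: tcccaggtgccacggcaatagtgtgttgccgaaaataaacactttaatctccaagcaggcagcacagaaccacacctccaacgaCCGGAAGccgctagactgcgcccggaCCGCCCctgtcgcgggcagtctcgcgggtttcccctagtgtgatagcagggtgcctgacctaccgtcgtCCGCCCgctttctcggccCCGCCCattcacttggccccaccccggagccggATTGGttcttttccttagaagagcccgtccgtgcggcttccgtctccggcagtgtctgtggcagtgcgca
Supt4h1: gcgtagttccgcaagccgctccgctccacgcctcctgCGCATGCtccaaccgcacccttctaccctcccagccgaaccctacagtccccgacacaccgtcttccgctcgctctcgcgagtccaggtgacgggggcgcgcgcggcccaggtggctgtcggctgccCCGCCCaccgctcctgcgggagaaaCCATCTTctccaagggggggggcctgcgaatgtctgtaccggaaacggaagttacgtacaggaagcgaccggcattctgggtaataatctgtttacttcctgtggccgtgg
Polr2j: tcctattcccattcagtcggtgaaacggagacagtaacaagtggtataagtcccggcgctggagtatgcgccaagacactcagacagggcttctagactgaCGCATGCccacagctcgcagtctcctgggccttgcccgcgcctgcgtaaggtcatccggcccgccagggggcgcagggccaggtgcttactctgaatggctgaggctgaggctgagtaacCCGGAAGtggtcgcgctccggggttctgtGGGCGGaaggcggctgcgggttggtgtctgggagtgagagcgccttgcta
Polr2a: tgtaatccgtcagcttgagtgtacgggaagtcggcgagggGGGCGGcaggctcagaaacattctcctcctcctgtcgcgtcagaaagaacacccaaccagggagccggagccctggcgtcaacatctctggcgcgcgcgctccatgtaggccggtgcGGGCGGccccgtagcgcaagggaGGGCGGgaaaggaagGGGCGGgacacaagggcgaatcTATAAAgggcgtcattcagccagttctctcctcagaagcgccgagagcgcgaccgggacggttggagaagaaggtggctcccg
Med23: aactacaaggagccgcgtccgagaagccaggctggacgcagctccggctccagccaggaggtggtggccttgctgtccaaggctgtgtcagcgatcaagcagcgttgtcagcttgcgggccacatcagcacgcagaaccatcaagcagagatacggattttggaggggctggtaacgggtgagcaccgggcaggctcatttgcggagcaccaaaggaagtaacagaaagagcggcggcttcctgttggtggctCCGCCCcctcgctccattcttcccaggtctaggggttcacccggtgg

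Polr2d's window held 3 GC boxes, 1 ETS motif and 1 CCAAT box. Supt4h1's held 1 GC box, 1 NRF1 motif and 1 YY1 motif, and Polr2j's 1 GC box, 1 ETS motif and 1 NRF1 motif. Med23's held 1 GC box. Polr2a's held 4 GC boxes and a TATA box. RefSeq windows were found for 47 of the 53 genes. A GC box lay in 33 of those 47 (70.2%), against 34.9% of all 27457 promoters. The ETS motif lay in 13 (27.7%, against 9.22%), the NRF1 motif in 5 (10.6%, against 3.54%) and the YY1 motif in 10, those of Taf5, Taf9b and Med12 among them (21.3%, against 7.29%). The E-box CACGTG lay in 6 (12.8%, against 6.65%). The TATA box was found in 4, those of Polr2a, Med16, Taf4b and Taf7l (8.51%, against 14.3%), and the CCAAT box in 16 (34.0%, against 37.7%). The median window was 59.3% G and C with 22 CG dinucleotides, against 52.3% and 7 over all promoters and 55.3% and 12 over the 19005 promoters of protein-coding genes, a base composition in which GC-rich motifs match more often. All members are protein-coding, and the motif shares were not computed over promoters of protein-coding genes alone. These matches describe the letters only.

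No member passed an adjusted p of 0.05 between homozygous and wild-type libraries, where 0.0382% of all features did (limma). Of the 48 tested members, 32 had a positive log2 difference (66.7%, against 49.9% of all features), and the median difference was 0.08, against -0.0011 over all features. An unadjusted p under 0.05 was found for 2 members (4.17%, against 6.35% of all features), Polr2d on the higher side and Med23 on the lower side, where 3.34% and 3.01% of all features lay. The 3 homozygous libraries lay wholly above the 3 wild-type libraries for Polr2d, Supt4h1 and Polr2j (6.25% of members, against 6.14% of all features) and wholly below them for Med23 and Ell (4.17%, against 5.27%). Those shares are near the background. With a mean of at least 10, 29 of 40 members had a positive difference (72.5%, median 0.09), against 57.2% of 6159 protein-coding genes (median 0.06). Of 4 oligodendrocyte markers only Mbp was listed, at 19.5 to 27.6 CPM in homozygous 4 to 6, against 29.3 to 44.8 in wild type, with no overlap. Mbp had between 108 and 387 reads in a library, and no other listed marker stands beside it for that cell type. The 3 listed neuron markers of 4 summed to 1291 to 1721 CPM in homozygous 4 to 6, against 1048 to 1345 in wild type. That sum is nearly all Stmn2, and Snap25 had 2.97 to 4.44 CPM in homozygous 4 to 6, against 2.38 to 9.69 in wild type. The 4 astrocyte markers summed to 6001 to 8100 CPM in homozygous 4 to 6, against 4318 to 7234 in wild type. Among them Gfap was higher in homozygous 4 to 6 with no overlap (2996 to 4223 CPM, against 899 to 2581 in wild type). Slc1a3 overlapped (2069 to 2969, against 2601 to 3280), as did Aqp4 (912 to 986, against 699 to 1371). Aldh1l1 was lower in homozygous 4 to 6 with no overlap (0.698 to 0.914 CPM, against 1.03 to 2.55 in wild type). It had at most 18 reads in a library. The part of these cell types in the differences was not tested. Nor was it tested whether reads of the markers had been counted on unnamed features, so a low marker value need not be a low level of the gene. The 95% interval of the log2 difference lay within 2-fold of no change for 32 of 48 members (66.7%, against 30.2%), which is 80% of the 40 members with a mean of at least 10, against 49.0% of protein-coding genes with that mean. The plot of log2 differences by complex gives all 48.

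**Figure D1:**
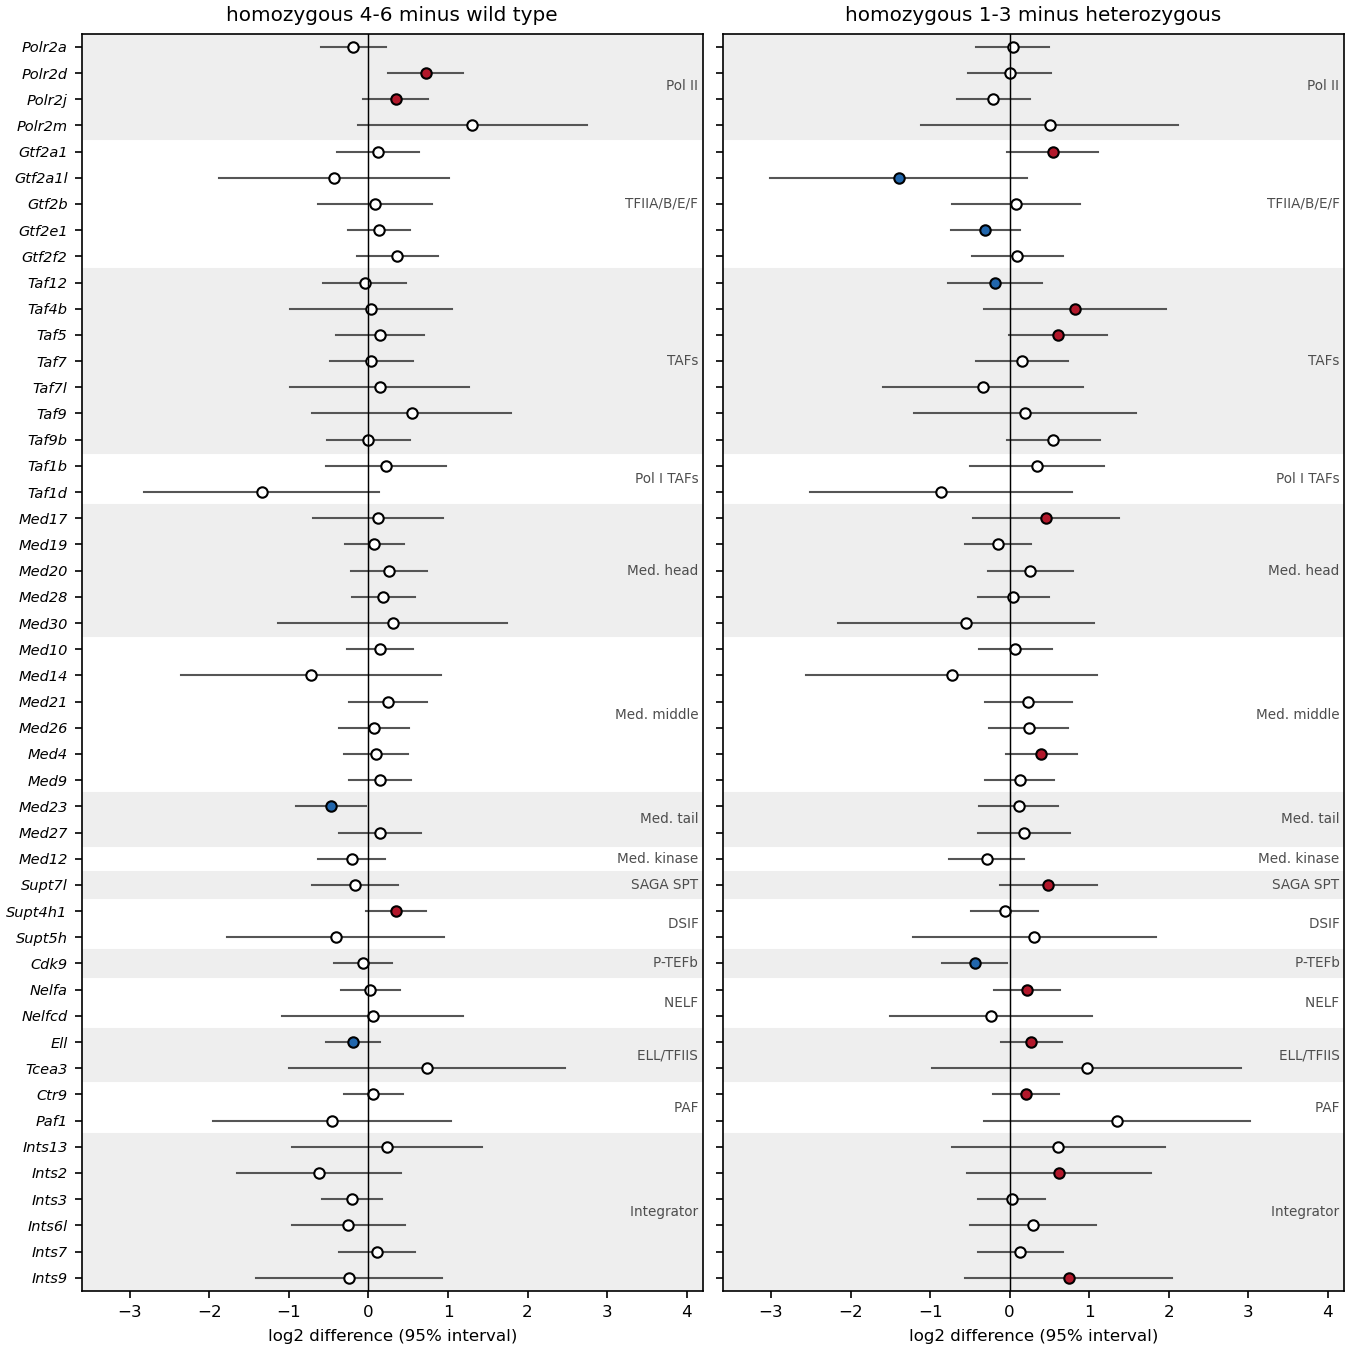
Log2 differences on the log2(normalized reads + 1) scale for the 48 tested members, grouped by complex, for homozygous 4-6 minus wild type (left) and homozygous 1-3 minus heterozygous (right). Points are estimates and lines 95% intervals; red marks genes whose homozygous libraries all lay above the other group, blue all below, and white an overlap. Most intervals cross 0, and Polr2d and Med23 are the 2 at left that do not.

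Of the polymerase's own subunits, Polr2d was the member with the largest difference relative to its error. Polr2d (ENSRNOG00000016231, rn6 chr18:24570762-24577894, plus strand) encodes RPB4, which with a partner forms the stalk beside the RNA exit channel. It had 415, 321 and 453 normalized reads in homozygous 4 to 6, against 239.6, 204 and 276 in the wild-type libraries. Each homozygous library of that set was above each wild-type library. The log2 difference was 0.72 ± 0.22 (SE), with an adjusted p of 0.596 (limma). In the other set Polr2d had 221, 229.9 and 277 in homozygous 1 to 3, against 275 and 211 in the heterozygous libraries, and these overlapped. Homozygous 1 to 3 stood with the heterozygous and wild-type libraries, not with homozygous 4 to 6, and the log2 difference between both sets of homozygous libraries was -0.70, about as large as that to wild type. Over all 6 homozygous against 3 wild-type libraries, Polr2d averaged 5.58 ± 0.44 and 5.22 ± 0.22 log2 CPM (SD), with a two-sided exact permutation p of 0.226 over 84 arrangements (0.825 adjusted over the 34 named members tested).

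Polr2j and Supt4h1 had the same arrangement. Polr2j (ENSRNOG00000001430, rn6 chr12:23587222-23592774, minus strand), which encodes the RPB11 subunit, had 677, 644 and 604 normalized reads in homozygous 4 to 6, against 539, 432 and 554 in wild type. It had 418, 501 and 476 in homozygous 1 to 3, against 629.6 and 455 in the heterozygous libraries. Homozygous 4 to 6 were thus above wild type with no overlap, whereas homozygous 1 to 3 overlapped the heterozygous range. The Polr2j log2 difference to wild type was 0.34 ± 0.19 (SE, limma adjusted p = 0.831). Polr2j overlaps Lrwd1 and an unnamed feature on the opposite strand. Supt4h1 (ENSRNOG00000007845, rn6 chr10:75032365-75038547, plus strand), the small subunit of DSIF, had 975, 956 and 907 in homozygous 4 to 6, against 727, 671 and 838 in wild type. It had 633, 784 and 688 in homozygous 1 to 3, against 816 and 653 in the heterozygous libraries. Its log2 difference to wild type was 0.35 ± 0.17 (SE, limma adjusted p = 0.818), and that between homozygous 1 to 3 and homozygous 4 to 6 was -0.44.

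Polr2a (ENSRNOG00000028834, rn6 chr10:56339284-56365084, minus strand), which carries the active site and the C-terminal repeats that P-TEFb phosphorylates, had a difference to wild type of the other sign, within its spread. It had 1146, 1036 and 1422 normalized reads in homozygous 4 to 6, against 1490.3, 1401 and 1198 in wild type. It had 1653, 1274 and 1516 in homozygous 1 to 3, against 1284 and 1607 in the heterozygous libraries. All 4 ranges overlapped. The log2 difference was -0.19 ± 0.19 to wild type and 0.04 ± 0.21 to heterozygous (SE), with limma adjusted p of 0.923 and 0.964. The interval of the difference to wild type ran from -0.59 to 0.22. Polr2m, the fourth tested polymerase II symbol, had at most 4 reads in a library. The files place Polr2m on chromosome 19 and RefSeq's current rat assembly on another, so its identity is uncertain. Its log2 difference to wild type was 1.31, with an interval from -0.14 to 2.75.

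**Figure D2:**
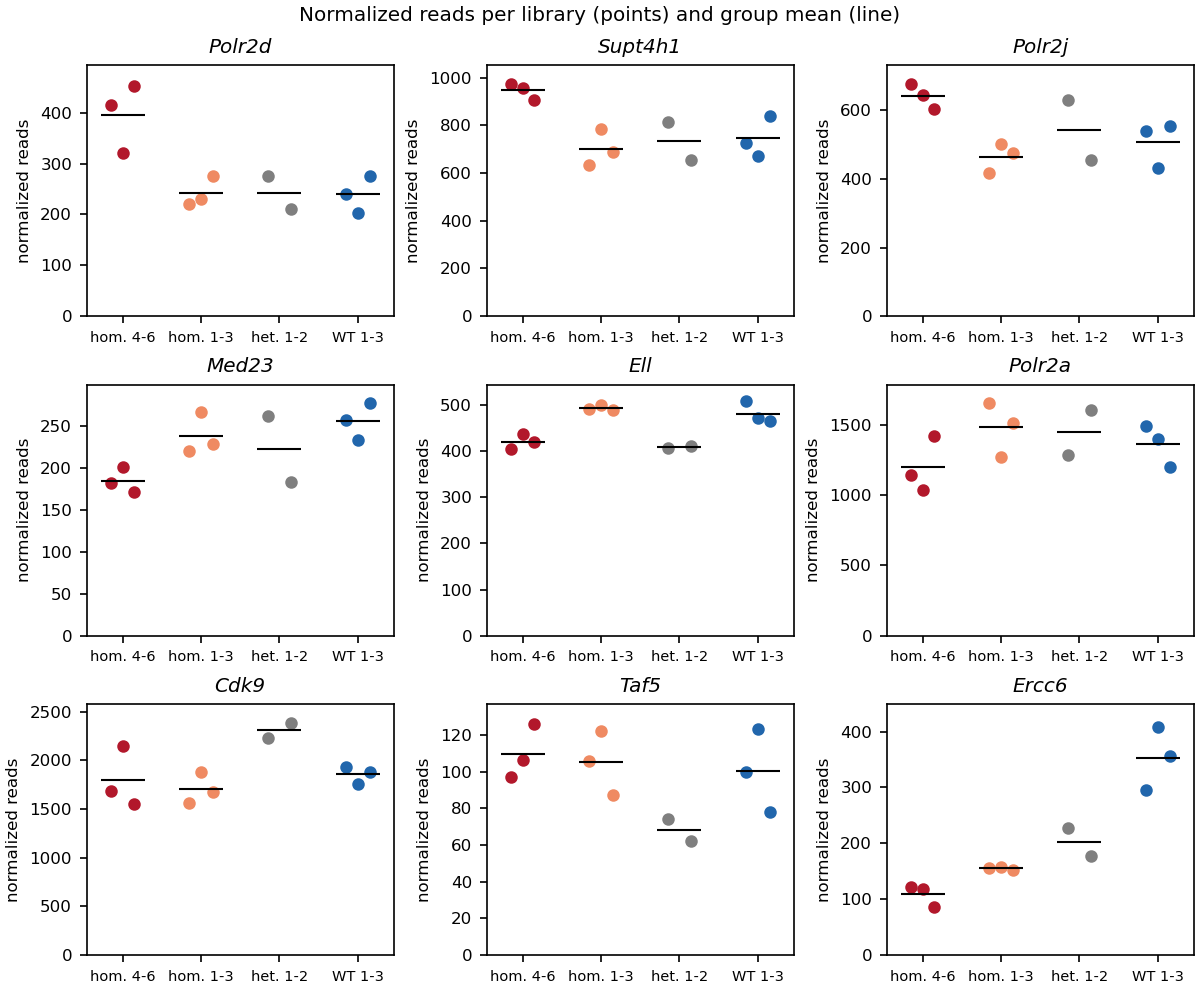
Normalized reads per library (points) and group means (lines) for 8 members and Ercc6, with homozygous 4-6, homozygous 1-3, heterozygous and wild type from left to right and each axis starting at 0. Homozygous 4-6 stand above the other 3 groups for Polr2d and Supt4h1, and the heterozygous libraries stand above the other groups for Cdk9 and below them for Taf5.

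Among the general transcription factors, 4 of the 5 tested had a positive log2 difference between homozygous and wild type, with a median of 0.12. Over all features, 49.9% had a positive difference. Gtf2f2, the small TFIIF subunit, had 235, 221 and 373 normalized reads in homozygous 4 to 6, against 184, 202 and 244 in wild type. The groups overlapped, and homozygous 6 stood well above every other library. The log2 difference was 0.36 ± 0.24 (SE, limma adjusted p = 0.855). Gtf2e1, the large TFIIE subunit, had 357, 309 and 366 in homozygous 4 to 6, against 304, 338 and 301 in wild type, and these overlapped. Gtf2b, which is TFIIB, and Gtf2a1, the large TFIIA subunit, had differences of 0.08 and 0.12. Gtf2a1l, a TFIIA paralog known from testis, had at most 4 reads in a library. Of the 7 TBP-associated factors of TFIID and SAGA, 6 had a positive difference and the median was 0.04, with Taf9, a histone-fold subunit, at 0.54 and an interval from -0.71 to 1.80. Taf5, Taf7 and Taf7l stood at 0.15, 0.04 and 0.14, Taf4b and Taf9b at 0.03 and 0.00056, and Taf12 at -0.05. Supt7l, a SAGA subunit, had -0.17. Taf1b and Taf1d, which the symbol rule also found, belong to the polymerase I factor SL1. Their log2 differences were 0.22 and -1.34, and Taf1d had at most 6 reads in a library and is overlapped by 7 features on its strand.

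Mediator was represented by 16 genes, 14 of them tested. In its head module all 5 tested genes had a positive log2 difference between homozygous and wild type (median 0.19). So did 5 of 6 in the middle and scaffold (median 0.12) and 1 of 2 in the tail. A positive difference was found for 49.9% of all features and 57.2% of protein-coding genes with a mean of at least 10. All 5 head genes were lower in homozygous 1 to 3 than in homozygous 4 to 6 (median -0.18), which enter both comparisons. Against heterozygous, 3 of the 5 had a positive difference. Med23 (ENSRNOG00000013422, rn6 chr1:21539765-21586910, minus strand), a tail subunit that contacts activators, was the member with the smallest p on the lower side. It had 181, 201 and 171 normalized reads in homozygous 4 to 6, against 257, 233 and 276 in wild type. It had 220.0, 266 and 228 in homozygous 1 to 3, against 262 and 183 in the heterozygous libraries. Homozygous 4 to 6 were below wild type with no overlap, and homozygous 1 to 3 overlapped the heterozygous libraries. The log2 difference was -0.47 ± 0.20 to wild type (SE, limma adjusted p = 0.757) and 0.12 to heterozygous. Med23 overlaps an unnamed feature on its strand. Med12, which activates the Mediator kinase, had 421, 304 and 356 normalized reads in homozygous 4 to 6, against 449.7, 408 and 384 in wild type, a difference of -0.21 ± 0.19 (SE, limma adjusted p = 0.919). Med20 and Med28 of the head had differences of 0.26 and 0.19, Med10 and Med21 of the middle 0.14 and 0.25, and Med27 of the tail 0.14. Med17, Med19 and Med30 of the head had 0.12, 0.07 and 0.30, Med4, Med9 and Med26 of the middle 0.10, 0.15 and 0.07, and Med14, with few reads, -0.73.

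Of the elongation factors, Cdk9 had 1691, 2144 and 1548 normalized reads in homozygous 4 to 6, against 1936, 1761 and 1883 in wild type. The homozygous libraries spanned the wild-type range, and the log2 difference was -0.06, with an interval from -0.43 to 0.30. Ell, which suppresses pausing, had 405, 436 and 421 in homozygous 4 to 6, against 508, 472 and 464 in wild type, with no overlap. Its log2 difference was -0.19 ± 0.16 (SE, limma adjusted p = 0.903). Nelfa and Nelfcd, subunits of NELF, had differences of 0.03 and 0.06, and Ctr9, a scaffold of the PAF complex, of 0.06. Paf1 and Supt5h had at most 13 reads in a library, with differences of -0.46 and -0.41 and intervals from -1.96 to 1.04 and from -1.77 to 0.95. Tcea3, a TFIIS paralog, ranged from 0.94 to 30.6 normalized reads over the 3 wild-type libraries alone. Of the 6 tested Integrator genes, 2 had a positive difference (33.3%, against 49.9% of all features) and the median was -0.23. Ints3 had 1198, 1359 and 1547 in homozygous 4 to 6, against 1438, 1732 and 1557 in wild type, and Ints2 had 43.3, 27.2 and 127 in homozygous 4 to 6, against 60.2, 119 and 78.9 in wild type. Both overlapped. Ints6l and Ints9 had differences of -0.25 and -0.24, and Ints7 and Ints13 of 0.10 and 0.23.

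Between homozygous and heterozygous libraries of set 1, no member passed an adjusted p of 0.05, and neither did any of the 20956 features in limma (0%). With unadjusted p under 0.05 there were 2539 features (12.1%). edgeR's quasi-likelihood test also called 0 features, and DESeq2 called 205 features, none of them a member. A positive log2 difference was found for 35 of the 48 members (72.9%, against 52.7% of all features), and the median was 0.17, against 0.04 over all features. No member had an unadjusted p under 0.05 on the higher side, where 6.16% of all features did. The homozygous libraries lay wholly above both heterozygous libraries for 11 members (22.9%, against 15.2% of all features): Ints2, Ints9, Gtf2a1, Supt7l, Med17, Med4, Nelfa, Ctr9, Ell, Taf5 and Taf4b. They lay wholly below for 4 (8.33%, against 15.1%): Cdk9, Gtf2e1, Taf12 and Gtf2a1l. The 95% interval lay within 2-fold of no change for 26 of 48 (54.2%, against 20.2%). With a mean of at least 10 it did so for 65% of members, against 34.2% of protein-coding genes.

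Cdk9 was the only member with an unadjusted p under 0.05 here, on the lower side, where 5.96% of all features were. It had 1557, 1883 and 1673 normalized reads in homozygous 1 to 3, against 2229.7 and 2388 in the heterozygous libraries. The heterozygous libraries were the highest of all 11. The log2 difference was -0.44 ± 0.19 (SE, limma adjusted p = 0.384). Cdk9 overlaps another annotated feature on its strand. Taf5, a TFIID scaffold subunit, had 106, 122 and 87.2 normalized reads in homozygous 1 to 3, against 74.4 and 62.3 in the heterozygous libraries. The log2 difference was 0.61 ± 0.28 (SE, limma adjusted p = 0.419). Gtf2a1 had 444.3, 389.9 and 316 in homozygous 1 to 3, against 255 and 265 in the heterozygous libraries. Its log2 difference was 0.54 ± 0.26 (SE, limma adjusted p = 0.438). Gtf2e1 had 331, 332 and 384 against 390.4 and 475, a difference of -0.31 ± 0.20 (SE, limma adjusted p = 0.566).

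Ell had the tightest values in the set, with 492, 499 and 489 normalized reads in homozygous 1 to 3, against 407 and 410.2 in the heterozygous libraries. Its log2 difference to heterozygous was 0.27 ± 0.18 (SE, limma adjusted p = 0.564), of the opposite sign to that between homozygous 4 to 6 and wild type. Taf9b, a TFIID and SAGA subunit, had 1014, 619 and 579.8 in homozygous 1 to 3, against 586 and 405 in the heterozygous libraries, with homozygous 1 the highest library by far and a log2 difference of 0.55. Med4 had 287, 336 and 288 against 255 and 208, Nelfa 627, 532 and 581 against 504 and 489.6, and Ctr9 1204, 974 and 1095 against 963 and 922. Markers of some cell types also differed in this comparison. The 3 listed endothelial markers of 5 summed to between 584 and 967 CPM in homozygous 1 to 3, against 1630 and 3215 in the heterozygous libraries. The 3 listed neuron markers of 4 summed to between 1102 and 1540 CPM in homozygous 1 to 3, against 908 and 701 in the heterozygous libraries. Neurod1, the 1 granule cell marker listed of 5, had 24.3 to 48.9 CPM in homozygous 1 to 3, against 10.1 and 5.45 in the heterozygous libraries. Neither the neuron sum nor Neurod1 overlapped between these groups. That sum is nearly all Stmn2. Snap25 was also higher in homozygous 1 to 3 (6.23 to 15.4 CPM, against 1.90 and 2.25). Rbfox3, with at most 9 reads in a library, was lower with no overlap (0 to 0.557 CPM, against 0.570 and 0.939). For the listed markers of Purkinje cells, forebrain neurons, astrocytes, oligodendrocytes and microglia, the sums overlapped between these groups. The part of these cell types in the result was not tested, and neither was a loss of marker reads to unnamed features.

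No set held both heterozygous and wild-type libraries, so their difference was formed through the homozygous libraries and carries the error of both comparisons. By limma 0 members and 0 features (0%) passed an adjusted p of 0.05, and 1669 features (7.96%) had an unadjusted p under 0.05. edgeR called 0 features and DESeq2 26, none of them a member. On the higher side 1 member, Polr2d, had an unadjusted p under 0.05 (2.08%, against 3.9% of all features), and on the lower side 0 did (against 4.07%). The heterozygous libraries lay wholly above wild type for 5 members (10.4%, against 13.6%) and wholly below for 8 (16.7%, against 11.5%). The 95% interval lay within 2-fold of no change for 20 of 48 (41.7%, against 10.3%). With a mean of at least 10 it did so for 50% of members, against 19.9% of protein-coding genes. A positive difference was found for 20 of 48 members (41.7%, against 48.6% of all features), with a median of -0.08, against -0.02. The direct levels show what the detour does. Polr2d had 275 and 211 normalized reads in the heterozygous libraries, against 239.6, 204 and 276 in wild type, and these overlapped. Its fitted log2 difference was 0.72, because homozygous 1 to 3 and homozygous 4 to 6 differ by as much, and it was 0.02 in a fit with no set term.

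Homozygous 1 to 3 and homozygous 4 to 6 share a genotype and differ in the set. Between them 0.0239% of all features and no member passed an adjusted p of 0.05 (limma). Polr2d, Supt4h1 and Polr2j had unadjusted p under 0.05, all lower in set 1 (6.25%, against 5.55% of all features in either direction and 2.64% on the lower side). No member did so on the higher side, where 2.92% of all features did. Homozygous 1 to 3 lay wholly above homozygous 4 to 6 for 2 members (4.17%, against 5.29%) and wholly below for 5 (10.4%, against 5.3%). A positive difference was found for 26 of 48 (54.2%, against 54.1%), and the interval lay within 2-fold for 32 (66.7%, against 30.9%). With a mean of at least 10 the interval did so for 80% of members, against 50.7% of protein-coding genes. Polr2d, Supt4h1 and Polr2j are the 3 genes that stood above wild type with no overlap in set 2. Homozygous 4 to 6 enter both comparisons, so the 2 results are not independent. The median log2 difference of the members was 0.03, against 0.05 over all features.

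Across the 11 libraries the 40 members with a mean of at least 10 had a lower median coefficient of variation than protein-coding genes as a whole. It was 18.6%, against 31.5% for the 6159 protein-coding genes with the same minimum, and 9 of the 40 members lay above the second value. Among the members it ran from 8.50% for Ell to 66.9% for Tcea3. Homozygous 6 was the highest of the 11 libraries for 15 of the 40 (37.5%, against 23.9% of those protein-coding genes and 16.9% of 13568 features). Heterozygous 2 was the lowest for 12 (30%, against 17.2% and 16.7%). The median deviation of the members from their own mean was 0.20 on the log2 scale in homozygous 6 and -0.20 in heterozygous 2. Without homozygous 6 the median log2 difference of the members between homozygous and wild type was 0.03, and without wild type 1 it was -0.0011. Without heterozygous 2 the median difference between homozygous and heterozygous was 0.18.

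**Figure D3:**
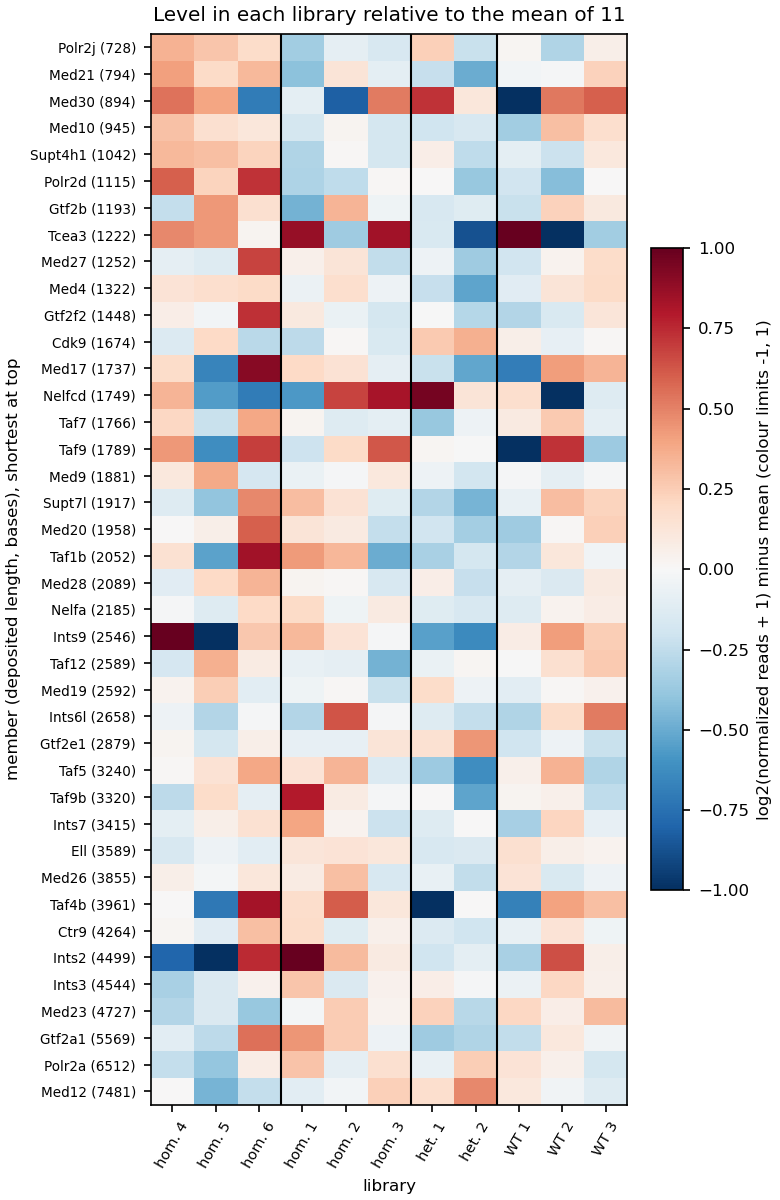
Level of the 40 members with a mean of at least 10 in each library, as log2(normalized reads + 1) minus the mean over 11 libraries, with the shortest gene at the top. Red is above and blue below the mean, with colours limited to -1 and 1. Homozygous 6 is red for most genes, and homozygous 4 and 5 are red mainly among the short genes at the top.

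The members did not vary as 1 block. Over the 780 pairs of those 40 genes, the median Pearson correlation of log2 CPM across 11 libraries was 0.12, and 60% of pairs were positive. All pairs share the same libraries and their depths. The members most like Polr2d were Supt4h1 (r = 0.85), Polr2j (0.81), Med21 (0.74) and Gtf2f2 (0.74), all short genes. The least like it were Med23 (r = -0.53), Ell (-0.49) and Polr2a (-0.43). Outside the machinery, the protein-coding genes that best followed the members' mean profile over 11 libraries were Slc33a1 (r = 0.97), Tigd2, Plrg1, Rraga and Tspyl1.

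Gene length ran with these differences, a comparison chosen after the values were seen. The 40 members divide at a deposited length of 2070.5 bases into 20 shorter and 20 longer genes. Between homozygous and wild type, 18 of the 20 shorter members had a positive log2 difference (90%, against 70.8% of shorter protein-coding genes), with a median of 0.19. Of the 20 longer ones 11 did (55%, against 47.6%), with a median of 0.01. The protein-coding genes, the members among them, divided at the same length had medians of 0.19 (2547 shorter) and -0.02 (3612 longer). The median of the short members equalled that of short protein-coding genes to 2 decimals, while their share of positive differences was higher. Spearman's rho between length and log2 difference was -0.66 over the 40 members and -0.31 over the 6159 protein-coding genes. Between homozygous 1 to 3 and heterozygous the rho values were 0.22 and 0.07. Between homozygous 1 to 3 and homozygous 4 to 6 they were 0.73 and 0.34, and homozygous 4 to 6 enter both this comparison and the one with wild type. With each library's trend on length removed, the log2 difference between homozygous and wild type was 0.57 for Polr2d, 0.20 for Supt4h1 and -0.39 for Med23, and the median of the members was 0.03. Genes are not independent replicates, and the cause of this trend was not tested.

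**Figure D4:**
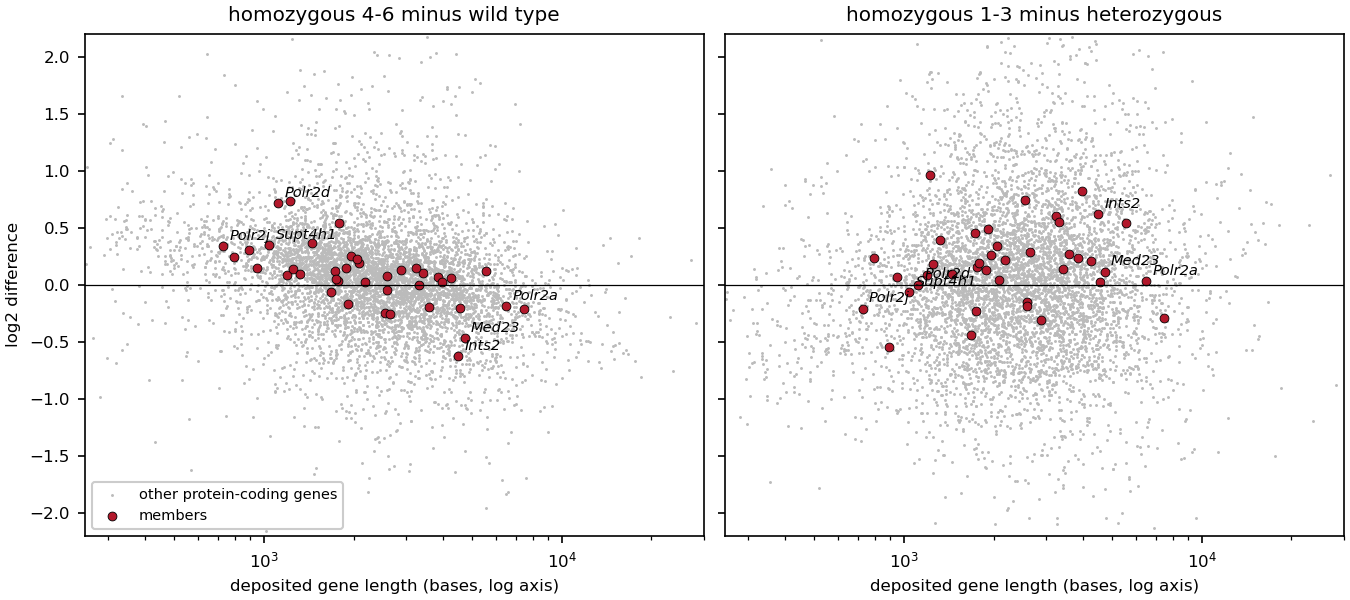
Deposited gene length (bases, log axis) against the log2 difference for the members (red) and the other protein-coding genes with a mean of at least 10 (grey), for homozygous 4-6 minus wild type (left) and homozygous 1-3 minus heterozygous (right). At left the members fall with length (rho = -0.66), and at right they do not (rho = 0.22). Genes beyond the axis limits are not drawn.

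The partners of this machinery were read from lists chosen by name. Of 10 TFIIH genes 4 were listed and tested, and none passed. Ccnh, the cyclin of the TFIIH kinase, had a log2 difference between homozygous and wild type of 0.29, and Gtf2h5, its smallest subunit, of -0.14 with few reads. Of 30 elongation partners 8 were listed and 6 tested, and none passed. All 6 had a negative difference to wild type (median -0.37), and for each of them the groups overlapped. Over all features, 49.9% had a positive difference. All 6 were also higher in homozygous 1 to 3 than in homozygous 4 to 6 (median 0.39), which share a genotype. Of all features, 54.1% were. Homozygous 4 to 6 enter both comparisons, so these counts are not independent. Cdk8, Ssrp1, Wdr61 and Aff1 had at most 7 reads in a library, so both medians rest largely on genes with few reads. Hexim1, with more reads, had a difference to wild type of -0.10. Cdk12, a kinase of the polymerase's C-terminal repeats, had a difference of -0.38 ± 0.28 to wild type and 0.29 ± 0.31 to heterozygous (SE). Wdr61, a PAF-associated subunit, had -1.40 to wild type at no more than 7.42 normalized reads. Of 11 genes of transcription-coupled repair 6 were listed and 4 tested, and Ercc6 was the 1 that passed, lower in homozygous. Uvssa, which acts with CSB at stalled polymerase, had a difference of -0.48 ± 0.43 (SE, limma adjusted p = 0.913).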

How the data were processed

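RNA of 11 libraries labelled as rat cerebellar cortex was sequenced in paired-end mode. The build rn6 and the tools HISAT2 2.0.4 and FastQC are named in the submitters' processing notes. How reads were counted, on which annotation and with which strand setting, is not given in the sources used here. What the authors deposited is a signal: the reads of each gene divided by a size factor. Whole reads were recovered, with 100% of the values whole at a tolerance of 0.001. Reads on unnamed assembled features made up 25.1% to 31.5% of each library. The deposited gene length is another column, in bases.

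limma 3.58.1 (R 4.3.3, mean-variance trend) was run on log2(value + 1) over the 20956 features listed in all files with a mean of at least 1, in 1 fit with genotype and set. P-values were adjusted by Benjamini-Hochberg over all features, with a threshold of 0.05. edgeR 4.0.16 and DESeq2 1.42.0 on the recovered reads were alternatives. So was a limma fit with the Y-linked gene Eif2s3y as a yes or no covariate, for at least 100 reads or fewer. A pseudocount understates the change of genes with few reads. Of the libraries, 6 homozygous and 3 wild-type ones were also compared by an exact permutation test on log2 CPM (prior count 2). The limma fit of homozygous against wild type was tested on simulated data.

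Named are Polr2a, Ercc6, the 3 members per direction with the smallest p in each comparison, and in each complex the members with the highest and lowest mean and the smallest p; others were chosen after their values were seen. Longer forms of the NRF1 and YY1 motifs were searched first. The members and lists were chosen with earlier results of these data known. Neighbour lists were matched by symbol, and 53 of 53 members matched RefSeq, 52 on the same chromosome.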

Additional observations from a re-analysis of the deposited data

Results flagged for a closer look

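Among 34 members checked for a library far from its group in the 6 homozygous libraries, 2 stood out on the log2 CPM scale, and both through homozygous 6. Such a gap is expected by chance in about 1 in 20 groups. Gtf2f2, the small TFIIF subunit, had 5.88 log2 CPM in homozygous 6, with the next library at 5.22. That gap was 0.702 of the range of the 6 libraries, past the 95% critical value of Dixon's test for 6 values. Med27, of the Mediator tail, had 6.52 log2 CPM in homozygous 6, with the next library at 5.92, a gap of 0.635 of the range. Homozygous 6 was also the highest library for 15 of the 40 members with a mean of at least 10.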

How the results depend on the processing

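Over 39 results for named genes and 945 values under other settings, 920 kept their direction and side of the threshold, 18 changed sign and 7 lost the call, all 7 for Ercc6. No member was called under any setting or tool. Between homozygous and wild type, limma called 8 features, edgeR 5, limma-voom 4 and DESeq2 38, and limma 2 with the Eif2s3y covariate and 3 in set 2 alone. Between homozygous and heterozygous a fit with no set term called 17 features, the Eif2s3y covariate 5, and DESeq2 205. Between heterozygous and wild type DESeq2 called 26, and between the homozygous sets 27 against 5 in limma. With 1 library left out, the members' median difference ran from -0.0011 to 0.13 for homozygous to wild type, from 0.13 to 0.22 for homozygous to heterozygous and from -0.20 to -0.019 for heterozygous to wild type, and the called features from 2 to 11, 0 to 3 and 0 to 7.

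Deviations of same-numbered libraries correlated with r from -0.16 to 0.22 over 7 pairs, not over 0.1 in every pair, so the numbers were not treated as a pairing. With a replicate block, limma called 4, 2 and 0 features and no member. The block gave log2 differences to wild type of -0.087 for Supt4h1, 0.34 for Ints2, 0.037 for Ell, 0.056 for Med12, -0.19 for Med21 and 0.12 for Polr2a, all of changed sign, and 0.022 for Polr2d. For Polr2a, heterozygous to wild type was 0.047 with the block and 0.081 with no set term. Homozygous to heterozygous was -0.12 with no set term, -0.0076 with the length trend removed and from -0.13 (without heterozygous 1) to 0.20 with 1 library left out. To wild type, Nelfa was -0.010 with the length trend removed. With 1 library left out, Nelfa ran from -0.064 (without homozygous 6) to 0.10, Cdk9 from -0.20 to 0.035 (without homozygous 6), Supt7l from -0.42 to 0.022 (without homozygous 5) and Taf9 from -0.010 (without wild type 1) to 1.09. The block values to wild type differ from the main ones in the homozygous libraries used. The cause of the other changes was not tested. Fits of 1 set alone give no heterozygous to wild type value, and fits without the set term none between the homozygous sets. None of the 8 tested members with a mean under 10 had an interval within 2-fold between homozygous and wild type, so depth limits what can be said of them.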
